A study of Bos taurus with 18 samples.

Results

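The theca of small antral follicles was compared with the stroma lying close to follicles in the ovary of the cow (Bos taurus), across every transcript cluster on the array. The comparison took the 6 arrays titled as theca of small healthy follicles and the 4 arrays titled as stroma close to follicles, 10 of the 18 arrays in the series. Ovaries were collected at an abattoir from cows that were not pregnant, 1 per animal, and no treatment or genetic change is named for any array. Each theca array held the theca dissected by hand from 1 healthy follicle under 5 mm in diameter, so that 6 follicles from 6 animals are represented. Each array of stroma close to follicles (near stroma from here on) held laser-captured tissue from stained frozen cortex sections of 10 µm, pooled over different animals, and the sources used here do not give the size of a pool. The 4 arrays of interstitial stroma and the 4 of tunica albuginea, the dense fibrous sheet below the surface of the ovary, were also laser-captured from pooled animals and are used here for levels outside the follicle. Theca RNA was extracted with RNeasy mini columns and laser-captured RNA with RNAqueous-Micro, after which all RNA was amplified with the Ovation Pico WTA V2 kit. Compartment therefore cannot be told apart from dissection against laser capture, from single animals against pools, or from the RNA kit in any value below.

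The theca is the coat of an ovarian follicle outside its basal lamina. Its inner layer holds steroid-producing cells that take up cholesterol and turn it into androgen under luteinising hormone, a dense net of capillaries, immune cells and fibroblasts, and its outer layer is fibrous. The granulosa cells inside the basal lamina turn that androgen into oestrogen, and the stroma outside the follicle is the tissue in which small resting follicles lie and from which theca cells are recruited as a follicle grows.

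Values are log2 signals after quantile normalisation, so a step of 1 is a doubling of the signal, and every array had a median of 4.1. The table carries no detection call, and a value near or below 4.1 can be background. A difference from such a value is then a lower limit. Each difference is given as theca minus near stroma in log2 units with its standard error, from 1 limma fit over all 18 arrays, and a transcript cluster was called where the Benjamini-Hochberg adjusted p over all 26773 clusters was below 0.05. The theca label was first checked against theca markers. The theca markers INSL3, LHCGR, CYP11A1, HSD3B1 and CYP17A1 had means of 10.87, 9.17, 10.02, 8.92 and 9.10 in theca and of 3.62, 2.68, 3.35, 2.77 and 3.45 in near stroma. Those 5 genes were far above the array median on every theca array and below it on every near stroma array. The fibroblast markers did not set near stroma apart in the same way. COL1A1, COL1A2, COL3A1 and LUM were higher in theca (1.71 ± 0.23, 2.58 ± 0.21, 1.53 ± 0.20 and 0.39 ± 0.13). DCN was not called (-0.03 ± 0.10), and PDGFRA was lower in theca (-1.15 ± 0.19).

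The 2 tissues differed at 8314 of 26773 clusters (31.1%), with 4131 higher in theca (15.4%) and 4183 lower (15.6%). A difference of at least 1 log2 unit was called at 1611 clusters higher in theca (6.02%) and 1136 lower (4.24%). The largest differences leaned towards theca: 96 clusters were higher by 3 log2 units or more and 57 lower, and 5 were higher by 6 or more and 0 lower. The arrays of the 2 groups did not overlap at 5017 clusters (18.7%). Among clusters with a mean of at least 6 in 1 of the 2 groups, where background plays a smaller part, 2298 of 6679 were higher in theca (34.4%) and 1283 lower (19.2%). The even split of calls depended on the scaling. Centring the arrays on their 75th percentile moved all differences by -0.108 and gave 3278 clusters higher and 5981 lower, and centring on the cytosolic ribosomal protein genes moved them by -0.189 and gave 2780 higher and 8117 lower. The first principal component of the 10 arrays held 54.5% of their variance and placed theca between 29.7 and 55 and near stroma between -69.3 and -62.

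**Figure D1:**
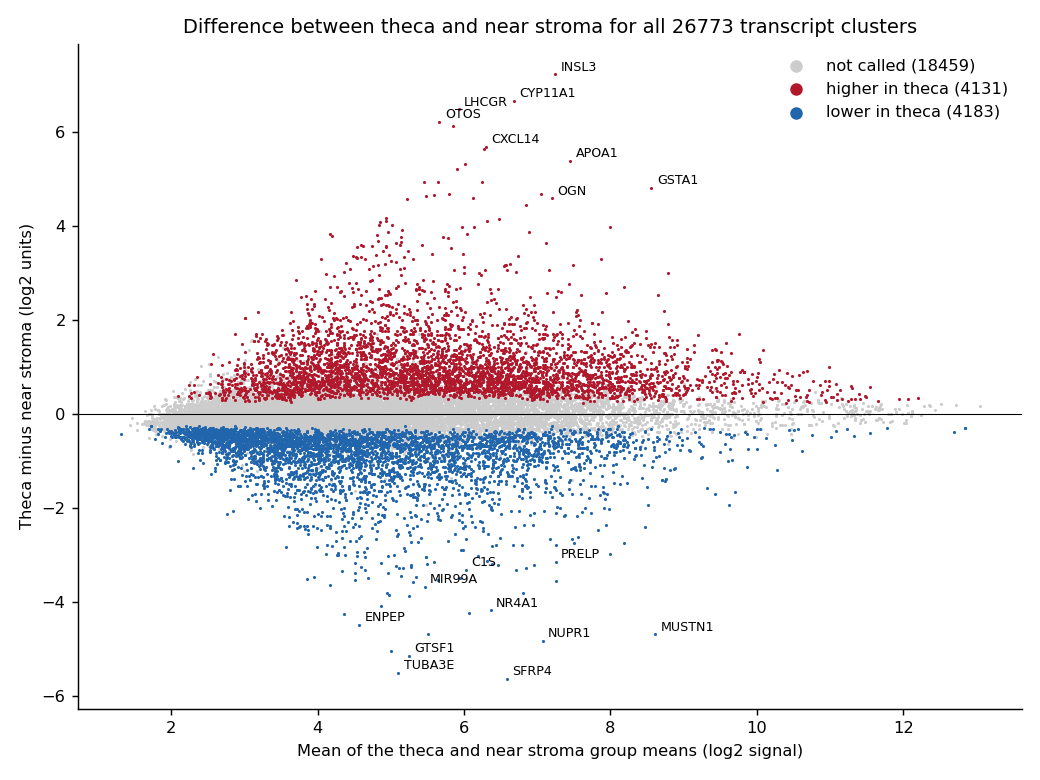
Difference between theca and near stroma (vertical axis, theca minus near stroma in log2 units) against the mean of the 2 group means (horizontal axis, log2 signal) for each of 26773 transcript clusters. Red points are the 4131 clusters called higher in theca and blue points the 4183 called lower; INSL3 at 7.24 and SFRP4 at -5.62 mark the extremes among the named genes.

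Of the 18010 genes that a single cluster could stand for, 3075 were higher in theca (17.1%) and 3062 lower (17%), with a median difference of -0.03. These shares are the background for the gene lists that follow. A list described with 0 members in 1 direction also had at most 1 member in that direction at an unadjusted limma p below 0.05. As both tissues are mixtures, fewer cells of a type and less RNA per cell cannot be told apart for any gene below.

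Theca stood out first by hormone genes. INSL3, a relaxin-like peptide hormone made by theca cells, had a lowest, median and highest value of 10.5, 10.9 and 11.2 over the 6 theca arrays and values of 3.9, 3.4, 3.2 and 4.0 on the 4 near stroma arrays. Its difference was 7.24 ± 0.20, adjusted p = 3.4e-14, a signal ratio of 151, which is a lower limit where the near stroma signal is background. LHCGR, the receptor for luteinising hormone, lay at 8.4, 9.25 and 9.6 in theca and at 2.6, 2.8, 2.6 and 2.7 in near stroma (6.49 ± 0.17, adjusted p = 3.4e-14). In both genes the lowest theca array was more than 5 log2 units above the highest near stroma array.

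The steps from cholesterol to androgen followed. CYP11A1, which cuts the side chain of cholesterol to make pregnenolone, lay at 9.2, 10.2 and 10.2 in theca and at 3.6, 4.0, 3.0 and 2.8 in near stroma, a difference of 6.67 ± 0.28, adjusted p = 1.1e-11. HSD3B1, which turns pregnenolone into progesterone, lay at 8.1, 9.05 and 9.3 against 2.9, 2.7, 2.8 and 2.7 (6.14 ± 0.20, adjusted p = 3e-13). CYP17A1, which makes androgen from these steroids, spread more widely over the theca arrays, at 7.2, 9.65 and 10.3, and lay at 3.2, 3.6, 3.3 and 3.7 in near stroma (5.65 ± 0.45, adjusted p = 5.5e-08). All 3 enzymes were high on every theca array and low on every near stroma array, with 1 theca array low for CYP11A1 and 2 low for CYP17A1. The wider list of 26 measured steroid synthesis genes held 12 that were higher, 3 lower and a median of 0.43. FDX1, the electron donor of CYP11A1, was higher by 1.79 ± 0.22, and NR5A1, the transcription factor that drives steroid enzyme genes, by 0.98 ± 0.21. HSD17B12, a hydroxysteroid and long-chain acyl reductase, was higher by 1.85 ± 0.22. CYP19A1, the aromatase of granulosa cells, was near background in both tissues, at 2.6, 2.8 and 3.8 in theca and 2.4, 2.5, 2.3 and 2.4 in near stroma, and its difference of 0.58 ± 0.22 had an adjusted p of 0.049, at the edge of the threshold.

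**Figure D2:**
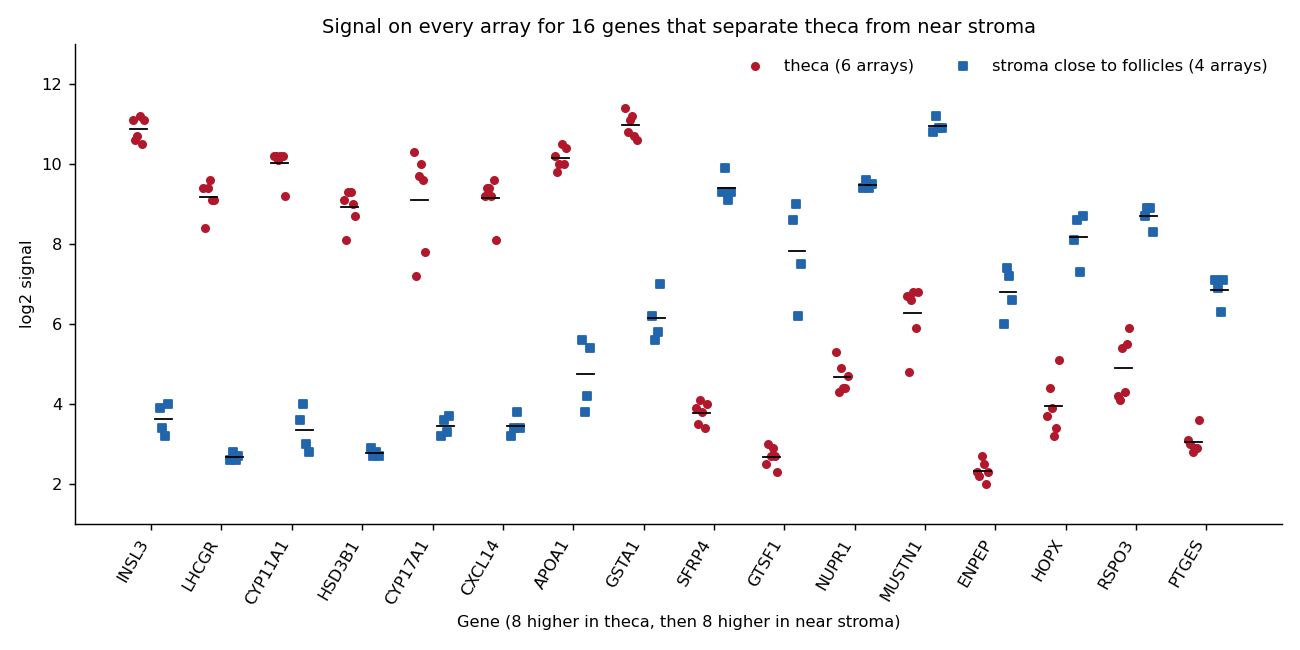
Log2 signal on each of the 6 theca arrays (red circles) and 4 near stroma arrays (blue squares) for 8 genes higher in theca and 8 higher in near stroma, with group means as black lines. All 16 were taken from genes chosen for having no overlap between the groups, so the gap between groups is a condition of the choice. CYP17A1 has 2 theca arrays, at 7.2 and 7.8, below the other 4.

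Genes that supply cholesterol and handle lipid were raised beside them. Of 22 measured genes of cholesterol synthesis and uptake, 13 were higher in theca, 0 lower, and the median was 0.85. SCARB1, the receptor that takes cholesterol from high-density lipoprotein, lay at 8.3, 8.6 and 9.6 in theca and at 5.7, 5.9, 6.2 and 6.4 in near stroma (2.78 ± 0.23, adjusted p = 1e-07), with no overlap. The synthesis enzymes MSMO1, EBP, SQLE and NSDHL were higher by 2.25 ± 0.39, 2.12 ± 0.33, 1.92 ± 0.46 and 1.92 ± 0.33, and NPC1, which releases cholesterol from lysosomes, by 1.44 ± 0.19. Arrays overlapped for SQLE and NSDHL, with theca replicate 6 at 5.4 and 5.5 and the highest near stroma array at 6.1 and 5.7. Arrays did not overlap for 7 of the 22 genes, against 18.7% of all clusters. The list mean ranged from 5.60 to 6.67 over theca arrays and from 5.09 to 5.27 over near stroma arrays. APOA1, the main protein of high-density lipoprotein, was among the strongest genes of the whole comparison, at 9.8, 10.1 and 10.5 against 5.6, 3.8, 4.2 and 5.4 (5.40 ± 0.48, adjusted p = 1.7e-07).

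Of 31 measured genes of lipid droplets and fatty acids, 17 were higher, 3 lower and the median was 0.71. CD36, a scavenger receptor that takes up fatty acids, lay at 6.1, 7.1 and 8.3 in theca and at 3.2, 2.8, 3.0 and 3.0 in near stroma (4.03 ± 0.33, adjusted p = 7e-08). The elongases ELOVL6 and ELOVL5 were higher by 2.19 ± 0.25 and 1.61 ± 0.19, the fatty acid carriers FABP3 and FABP5 by 2.07 ± 0.53 and 1.92 ± 0.35, and the droplet coat protein PLIN2 by 1.29 ± 0.21. LPL, which frees fatty acids from circulating lipoproteins, went the other way, at 5.7, 6.3 and 6.8 in theca against 7.8, 8.6, 8.5 and 8.1 in near stroma (-1.97 ± 0.21, adjusted p = 1.3e-06), again with no overlap.

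Enzymes that handle peroxides and foreign compounds moved with these. Of 35 measured genes, 23 were higher in theca, 3 lower and the median was 0.75. GSTA1, a glutathione transferase known from steroid-producing tissue, was above the array median in both tissues, at 10.6, 10.95 and 11.4 in theca and at 6.2, 5.6, 5.8 and 7.0 in near stroma (4.82 ± 0.29, adjusted p = 1.7e-09). Its mean was 4.72 ± 0.70 in interstitial stroma and 2.65 ± 0.29 in tunica albuginea (SD, n = 4 each), so the 4 compartments stood in the order theca, near stroma, interstitial stroma and tunica albuginea. The step from near to interstitial stroma was not called (1.42 ± 0.32, adjusted p = 0.14), and that from interstitial stroma to tunica albuginea was not tested. GSTA2, GSTM3, MGST1 and MGST3 were higher by 2.15 ± 0.46, 1.92 ± 0.24, 1.63 ± 0.40 and 1.62 ± 0.14, and the mitochondrial peroxidase PRDX3 by 1.72 ± 0.21, while the mitochondrial superoxide dismutase SOD2 was lower (-0.61 ± 0.13, adjusted p = 0.0016). LOC613358, listed in RefSeq with the synonym MT1E, a metallothionein, lay at 6.6, 9.05 and 9.6 against 3.3, 4.0, 3.3 and 2.8 (5.33 ± 0.54, adjusted p = 7.9e-07).

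The other genes with the largest differences towards theca were secreted or membrane proteins of varied kind. CXCL14, a chemokine, lay at 8.1, 9.3 and 9.6 against 3.2, 3.4, 3.8 and 3.4 (5.70 ± 0.22, adjusted p = 2.9e-12). OTOS, a secreted protein known from the inner ear, lay at 8.3, 8.65 and 9.4 against 2.6, 2.4, 2.6 and 2.6 (6.23 ± 0.18, adjusted p = 4.5e-14). KCNIP1, which binds voltage-gated potassium channels, was higher by 4.70 ± 0.17, and ITGBL1, a secreted integrin-like protein, by 4.65 ± 0.29. All 4 were below the array median on every near stroma array.

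Of 27 measured genes of prostaglandin and renin-angiotensin metabolism 5 were higher in theca, 9 were lower and 13 were not called, with a median of -0.06. HPGD, which breaks prostaglandins down, lay at 7.5, 7.9 and 8.5 in theca and at 3.1, 2.9, 3.3 and 3.7 in near stroma (4.67 ± 0.26, adjusted p = 7.8e-10). SLCO2A1, the carrier that takes prostaglandins into cells for breakdown, lay at 7.1, 8.05 and 8.7 against 4.6, 3.3, 4.1 and 3.9 (3.99 ± 0.29, adjusted p = 2.2e-08). PTGES, PTGDS and PTGS2, of prostaglandin synthesis, were lower in theca. PTGES, which makes prostaglandin E2, lay at 2.8, 2.95 and 3.6 against 7.1, 6.9, 6.3 and 7.1 (-3.80 ± 0.31, adjusted p = 7.4e-08), PTGDS was lower (-1.98 ± 0.19), and PTGS2, the inducible cyclooxygenase, lay at 2.4, 2.95 and 4.0 against 4.6, 3.9, 5.4 and 5.0 with overlapping arrays (-1.66 ± 0.42, adjusted p = 0.006). The peptidases ENPEP and ANPEP were also lower: ENPEP, aminopeptidase A, lay at 2.0, 2.3 and 2.7 against 6.0, 7.4, 7.2 and 6.6 (-4.47 ± 0.29, adjusted p = 4.6e-09), and ANPEP, aminopeptidase N, was lower by a smaller amount (-1.02 ± 0.36, adjusted p = 0.039).

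Near stroma stood out from theca by genes of WNT signalling. SFRP4, a secreted WNT antagonist, lay at 3.4, 3.85 and 4.1 in theca and at 9.3, 9.9, 9.1 and 9.3 in near stroma, a difference of -5.62 ± 0.19, adjusted p = 5.8e-13 and the largest in favour of near stroma among named genes. RSPO3, a secreted agonist of the same pathway, lay at 4.1, 4.85 and 5.9 against 8.7, 8.9, 8.9 and 8.3 (-3.80 ± 0.44, adjusted p = 3.4e-06). The ligand WNT5A and its receptor ROR1 were lower in theca by differences of -2.85 ± 0.30 and -2.88 ± 0.26, as were the antagonists SFRP2 (-2.17 ± 0.34) and NKD1 (-1.61 ± 0.17). Ligand, receptor, agonist and antagonists were thus all brighter in near stroma than in theca. Near minus interstitial stroma was 0.25 ± 0.21 for SFRP4, -0.10 ± 0.48 for RSPO3 and 0.25 ± 0.33 for WNT5A. It was 0.15 ± 0.28 for ROR1, 0.15 ± 0.37 for SFRP2 and 0.10 ± 0.19 for NKD1, and none of these was called. Of 50 measured genes of the pathway 18 were lower in theca and 4 higher, with a median of -0.18. SFRP4 was also high in the other laser-captured tissues, at 9.15 ± 0.37 in interstitial stroma and 9.88 ± 0.21 in tunica albuginea (SD, n = 4 each).

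Several further genes were lower in theca than in near stroma. NUPR1, a stress-induced nuclear protein, lay at 4.3, 4.55 and 5.3 in theca and at 9.4, 9.6, 9.4 and 9.5 in near stroma (-4.81 ± 0.17, adjusted p = 1.1e-12). MUSTN1, a small nuclear protein of muscle and skeletal tissue, was bright on near stroma arrays, at 10.8, 11.2, 10.9 and 10.9, and lay at 4.8, 6.65 and 6.8 in theca (-4.68 ± 0.30, adjusted p = 4.5e-09). HOPX, a homeodomain protein that does not bind DNA itself, lay at 3.2, 3.8 and 5.1 against 8.1, 8.6, 7.3 and 8.7 (-4.22 ± 0.38, adjusted p = 1.9e-07). None of the 3 overlapped between the groups, which was a condition of the rule that picked them. These genes were also bright outside near stroma: the means in interstitial stroma and tunica albuginea were 9.70 ± 0.26 and 9.38 ± 0.10 for NUPR1, 11.03 ± 0.33 and 10.55 ± 0.21 for MUSTN1 and 8.02 ± 0.82 and 10.32 ± 0.21 for HOPX (SD, n = 4 each). TUBA3E, an alpha tubulin, and FAIM2, an inhibitor of Fas-driven cell death, were lower in theca by differences of -5.50 ± 0.35 and -4.68 ± 0.20; alpha tubulin genes are alike in sequence, and how far the probes of TUBA3E take signal from its relatives was not tested.

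Germ cell genes were the most one-sided list in favour of near stroma over theca. Of 20 measured oocyte markers 16 were lower in theca, 0 higher, and the median was -1.34. GTSF1, a small RNA pathway protein of germ cells, lay at 2.3, 2.7 and 3.0 in theca and at 8.6, 9.0, 6.2 and 7.5 in near stroma (-5.14 ± 0.45, adjusted p = 1.7e-07). DAZL, an RNA-binding protein of germ cells, lay at 3.2, 3.65 and 4.0 against 7.6, 8.0, 5.9 and 6.8 (-3.46 ± 0.32, adjusted p = 3.2e-07), and ZP3, a protein of the egg coat, at 3.1, 3.25 and 3.4 against 6.5, 7.4, 4.7 and 5.8 (-2.85 ± 0.35, adjusted p = 7.7e-06). In each of the 3 genes near stroma replicates 1 and 2 were the 2 highest arrays. LHX8 and SOHLH2, transcription factors of young oocytes, were lower in theca by differences of -2.70 ± 0.26 and -2.43 ± 0.19, KPNA7, an importin of oocytes and early embryos, by -2.16 ± 0.26, and the secreted oocyte factors BMP15 and GDF9 by -1.45 ± 0.27 and -1.33 ± 0.22. ZP2 was not called, at 3.7, 4.2 and 4.7 in theca and 4.7, 5.6, 3.7 and 3.9 in near stroma. The mean of the 20 markers was 5.10, 5.39, 4.24 and 4.47 on the 4 near stroma arrays and 3.14 to 3.50 on theca arrays. Theca was below the array median for the mean of the list on every array, and 2 near stroma arrays carried clearly more of it than the other 2. In interstitial stroma GTSF1, DAZL and ZP3 had means of 5.90 ± 0.52, 5.78 ± 0.54 and 4.60 ± 0.41 (SD, n = 4 each). Each mean was above every theca array. Their steps from near to interstitial stroma were not called (limma adjusted p = 0.22, 0.25 and 0.22). Of the 20 markers only SOHLH2 was called higher in near than in interstitial stroma, 0 were lower, and the median difference was 0.74. ADAD1, a double-stranded RNA-binding protein of germ cells in the mouse, was not on the list and had a difference of -5.04 ± 0.44. Nor was CPEB1, a regulator of stored messages in oocytes, at -3.85 ± 0.21. CPEB1 was also bright in both other laser-captured tissues, at 6.20 ± 0.14 in interstitial stroma and 5.98 ± 0.43 in tunica albuginea. ADAD1 had means of 5.92 ± 0.65 and 3.50 ± 1.24 there (SD, n = 4 each).

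The fibrous matrix changed in makeup. Of 41 measured genes of fibrous and interstitial matrix 17 were higher in theca (41.5%) and 12 lower (29.3%). Among clusters with a mean of at least 6 the shares were 34.4% and 19.2%. The arrays of the 2 groups did not overlap for 28 of the 41, against 18.7% of all clusters. COL1A2, a chain of type I collagen, was higher by 2.58 ± 0.21, COL1A1 by 1.71 ± 0.23 and COL3A1, of type III collagen, by 1.53 ± 0.20. LOX, which cross-links collagen, lay at 7.4, 8.5 and 8.7 in theca and at 5.2, 5.3, 5.5 and 4.8 in near stroma (3.03 ± 0.27, adjusted p = 1.9e-07). POSTN, periostin, a matrix protein of tissue under remodelling, and FBLN5 and FBN2, proteins of elastic fibres, were higher by 3.60 ± 0.41, 3.65 ± 0.25 and 2.63 ± 0.28, and FN1, fibronectin, by 1.58 ± 0.15. On the other side, FBLN1 and MFAP4, also parts of elastic fibres, were lower in theca (-2.96 ± 0.14 and -2.60 ± 0.26). The fibulins thus went both ways, with FBLN5 higher and FBLN1 lower in theca and no overlap of arrays in either.

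The small leucine-rich proteoglycans, which coat collagen fibrils, split in the same manner, with 5 of 13 higher, 4 lower and a median of -0.03. ASPN, asporin, lay at 8.8, 9.35 and 9.9 in theca and at 4.4, 4.8, 5.0 and 4.6 in near stroma (4.70 ± 0.23, adjusted p = 1.1e-10). OGN, osteoglycin, lay at 9.0, 9.55 and 9.9 against 4.6, 4.3, 5.4 and 5.3 (4.60 ± 0.27, adjusted p = 1e-09), and OMD, osteomodulin, was higher by 3.69 ± 0.22. PRELP lay at 5.1, 5.6 and 6.5 against 8.7, 8.8, 8.6 and 9.2 (-3.14 ± 0.23, adjusted p = 2e-08). DCN, decorin, was among the brightest genes of both tissues, at 11, 11.25 and 11.4 and 11.3, 11.3, 11.1 and 11.3, and its difference was -0.03 ± 0.10 with a 95% interval of -0.25 to 0.19. Asporin, osteoglycin and osteomodulin were therefore high in theca, PRELP high in near stroma and decorin close to equal in the 2 tissues. BGN, biglycan, was higher in theca than in near stroma (2.50 ± 0.22, adjusted p = 1.4e-07), and its mean of 8.43 ± 0.10 in tunica albuginea (SD, n = 4) was near the theca mean of 8.50 ± 0.27 (SD, n = 6).

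Basement membrane genes leaned to theca, with 11 of 25 higher, 6 lower and a median of 0.44. The laminin chains LAMA4 and LAMB1 were higher by 3.0 ± 0.28 and 1.64 ± 0.13, nidogen NID2 by 2.58 ± 0.24, the collagen IV chains COL4A1 and COL4A2 by 1.76 ± 0.14 and 1.25 ± 0.16, and COL15A1 by 1.92 ± 0.22. FREM2, an epithelial basement membrane protein, was lower (-2.38 ± 0.31, adjusted p = 1.6e-05). Among 33 measured matrix proteases and inhibitors 10 were higher and 9 lower. ADAMDEC1, a secreted metalloprotease, lay at 7.7, 8.45 and 9.2 in theca and at 3.3, 4.1, 2.6 and 3.2 in near stroma (5.22 ± 0.38, adjusted p = 1.8e-08). ADAMTS9 was higher (2.27 ± 0.21), and ADAMTS1, MMP14 and MMP16 were lower (-1.74 ± 0.25, -1.60 ± 0.15 and -2.0 ± 0.39). TIMP1, an inhibitor of these proteases, was alike in level, at 7.5, 8.15 and 8.7 and 7.9, 8.1, 8.6 and 8.2, with a 95% interval of -0.44 to 0.38. Of 29 measured matrix receptors 9 were higher and 6 lower, with DAG1, dystroglycan, and the glypican GPC3 higher (1.82 ± 0.23 and 2.03 ± 0.30) and the integrin chain ITGB8 and the syndecan SDC4 lower (-2.62 ± 0.19 and -2.71 ± 0.18).

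Blood vessel genes were higher in theca as a group. Of 30 measured endothelial markers 22 were higher, 0 lower, and the median was 1.26. PECAM1, an adhesion protein of endothelium, lay at 6.7, 7.05 and 7.6 in theca and at 4.6, 4.2, 4.9 and 3.9 in near stroma (2.68 ± 0.28, adjusted p = 1.3e-06). CDH5, the cadherin of endothelial junctions, lay at 6.8, 7.05 and 7.3 against 4.9, 4.0, 5.0 and 3.8 (2.62 ± 0.38, adjusted p = 4e-05), and PTPRB, an endothelial phosphatase, at 6.1, 6.4 and 6.6 against 3.0, 2.4, 3.2 and 2.7 (3.59 ± 0.24, adjusted p = 7.6e-09). The arrays did not overlap for any of the 3. KDR, the main receptor of VEGF, was higher by 1.91 ± 0.28, TEK, the angiopoietin receptor, by 1.59 ± 0.22, VWF by 1.52 ± 0.21 and LYVE1, a receptor of lymphatic endothelium and some macrophages, by 2.69 ± 0.34. The list mean was 5.33 to 5.66 on theca arrays and 4.09 to 4.49 on near stroma arrays.

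Of 30 measured angiogenic ligands and Notch pathway genes 16 were higher, 4 lower and the median was 0.57. The ligands VEGFC and VEGFD, known for lymphatic growth, were higher by 2.03 ± 0.23 and 2.52 ± 0.17, the co-receptor NRP1 by 2.62 ± 0.17 and the Notch ligand JAG1 by 2.02 ± 0.24. VEGFB was lower (-2.09 ± 0.15, adjusted p = 2e-08). VEGFA, the main ligand for capillary growth, was not called (-0.37 ± 0.21, adjusted p = 0.2), nor was ANGPT2 (-0.71 ± 0.46, adjusted p = 0.27). Pericyte markers, of cells that wrap capillaries, gave 7 of 13 higher, 2 lower and a median of 0.73. RGS5 lay at 8.0, 8.2 and 8.5 in theca and at 5.1, 4.8, 6.1 and 4.1 in near stroma (3.21 ± 0.47, adjusted p = 5e-05), while PDGFRB was slightly lower with overlapping arrays (-0.51 ± 0.19, adjusted p = 0.048) and CSPG4 was not called (-0.27 ± 0.14).

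Contractile genes of smooth muscle went the other way, with 11 of 18 measured members lower in theca, 1 higher and a median of -0.63. MYH11, smooth muscle myosin, lay at 6.4, 7.3 and 7.8 in theca and at 9.7, 9.6, 9.7 and 9.7 in near stroma (-2.39 ± 0.20, adjusted p = 1.2e-07). CNN1, calponin, lay at 4.1, 5.25 and 5.4 against 7.4, 7.5, 7.1 and 7.4 (-2.40 ± 0.34, adjusted p = 3e-05), and MYOCD, the coactivator that drives these genes, at 3.7, 5.2 and 5.7 against 7.5, 7.6, 7.0 and 7.8 (-2.42 ± 0.28, adjusted p = 3.7e-06). DES, desmin, was lower (-2.13 ± 0.26) and TAGLN was not called (-0.65 ± 0.31). The list mean was 6.21 to 6.77 on theca arrays and 7.17 to 7.48 on near stroma arrays. MYH11 was also bright in the other laser-captured tissues, at 9.65 ± 0.24 in interstitial stroma and 9.43 ± 0.22 in tunica albuginea (SD, n = 4 each).

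Myeloid markers were higher in theca, with 11 of 21 measured members called, 0 lower and a median of 0.74. C1QA, a complement chain made by macrophages, lay at 4.6, 5.0 and 5.6 in theca and at 2.1, 2.6, 3.9 and 2.6 in near stroma (2.25 ± 0.35, adjusted p = 8.2e-05). CTSS, a protease of antigen-presenting cells, lay at 7.8, 7.95 and 8.4 against 5.9, 5.9, 6.6 and 4.9 (2.19 ± 0.27, adjusted p = 8.8e-06), and the scavenger receptor CD163 at 3.8, 4.05 and 4.5 against 2.7, 2.3, 3.0 and 2.6 (1.47 ± 0.17, adjusted p = 4.3e-06). CD163 and C1QA were dim in both groups, and CSF1R, the receptor for macrophage growth factor, was not called (-0.29 ± 0.17). The list mean was 4.30 to 4.83 on theca arrays and 3.66 to 4.12 on near stroma arrays. Lymphocyte markers gave 3 of 22 higher (13.6%), 0 lower and a list mean below the array median on every array, at 3.38 to 3.57 and 3.26 to 3.53.

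Interferon response and antigen presentation genes were higher for 16 of 27 measured members, with 0 lower and a median of 0.71. BOLA-DRA, a class II antigen-presenting chain, lay at 9.0, 9.15 and 9.4 in theca and at 7.5, 7.1, 8.4 and 6.7 in near stroma (1.76 ± 0.33, adjusted p = 0.00056). The antiviral genes OAS1Y, MX1 and ISG15 were higher by 2.40 ± 0.33, 2.17 ± 0.30 and 1.81 ± 0.28, the peptide carrier TAP1 by 1.69 ± 0.16 and the immunoproteasome chain PSMB9 by 2.78 ± 0.19. Of 32 measured chemokines and cytokines 10 were higher, 4 lower and the median was 0.36. CCL14 lay at 6.1, 6.85 and 7.1 against 2.4, 2.7, 3.8 and 2.7 (3.82 ± 0.33, adjusted p = 1.5e-07) and CXCL10, an interferon-induced chemokine, at 4.0, 5.25 and 6.6 against 2.4, 2.9, 2.6 and 2.7 (2.62 ± 0.44, adjusted p = 0.00018), whereas CXCL12 was lower (-1.37 ± 0.42, adjusted p = 0.018). The complement proteases C1S and C1R were lower in theca. C1S lay at 3.6, 4.25 and 5.5 in theca and at 7.3, 7.8, 8.0 and 7.6 in near stroma (-3.31 ± 0.29, adjusted p = 1.9e-07), C1R at 3.4, 3.7 and 4.0 against 5.9, 6.4, 5.6 and 6.0 (-2.26 ± 0.19, adjusted p = 1.2e-07), and their inhibitor SERPING1 was lower as well (-2.13 ± 0.30). Complement as a whole gave 4 of 25 higher and 5 lower. The C1q chains C1QA and C1QB, which were counted with the myeloid markers, were higher in theca (2.25 ± 0.35 and 1.36 ± 0.22).

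Hedgehog ligands made by granulosa cells act on theca cells in the mouse, and 3 known target genes of the pathway were higher. HHIP, a target and inhibitor of the pathway, lay at 6.4, 6.65 and 6.8 in theca and at 3.5, 2.9, 3.1 and 3.1 in near stroma (3.48 ± 0.19, adjusted p = 4.1e-10). PTCH1, the receptor and a target, lay at 8.6, 9.2 and 9.3 against 6.3, 5.9, 5.0 and 6.4 (3.17 ± 0.22, adjusted p = 1.2e-08), and GLI1, a transcription factor and target, at 5.2, 5.45 and 6.1 against 4.2, 3.9, 3.7 and 4.2 (1.52 ± 0.18, adjusted p = 5.7e-06). No arrays overlapped in these 3. Genes for sending or receiving the signal, HHAT, BOC and DISP1, were lower (-1.42 ± 0.23, -1.42 ± 0.15 and -1.16 ± 0.22). Over the 15 measured genes 4 were higher and 4 lower.

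Activin and inhibin genes were also raised. INHBA, the subunit shared by activin A and inhibin A, lay at 6.9, 7.65 and 8.0 in theca and at 4.0, 4.2, 4.7 and 3.3 in near stroma (3.55 ± 0.33, adjusted p = 2.8e-07). FST, follistatin, which binds activin, lay at 6.8, 7.25 and 7.6 against 3.4, 3.5, 3.7 and 3.9 (3.61 ± 0.18, adjusted p = 1.1e-10), and INHA, the inhibin alpha subunit, at 7.1, 7.6 and 7.8 against 5.1, 5.7, 4.9 and 4.8 (2.39 ± 0.22, adjusted p = 2.8e-07). BMP4 was higher by 1.08 ± 0.21. TGFB2, the decoy receptor BAMBI and the target ID2 were lower in theca (-1.98 ± 0.19, -2.42 ± 0.19 and -2.78 ± 0.25), and TGFB1 was not called (0.37 ± 0.19). Of 52 measured genes of TGF-beta and BMP signalling 8 were higher, 14 lower and the median was -0.22.

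In the insulin-like growth factor system, IGF2 was higher in theca and IGF1 lower. IGF2 lay at 6.8, 7.15 and 7.4 in theca and at 5.6, 5.8, 6.0 and 5.4 in near stroma (1.43 ± 0.24, adjusted p = 0.00022). IGF1 lay at 4.8, 5.3 and 6.1 against 6.4, 6.9, 7.1 and 6.3 (-1.31 ± 0.37, adjusted p = 0.011), and its receptor IGF1R was lower (-1.30 ± 0.18). STC1, stanniocalcin, a secreted hormone, was higher by 3.08 ± 0.37, and the binding protein IGFBP5 lower (-2.69 ± 0.28, adjusted p = 1.4e-06). Of 22 measured genes 6 were higher and 7 lower. KITLG, the ligand of the KIT receptor on oocytes and theca, was higher by 1.48 ± 0.21. FGF10, HGF and its receptor MET were lower (-2.58 ± 0.34, -2.16 ± 0.31 and -2.23 ± 0.36), as were PDGFD (-1.88 ± 0.15) and the receptor PDGFRA (-1.15 ± 0.19), and the FGF, PDGF and KIT systems together gave 4 of 33 higher, 14 lower and a median of -0.40.

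Relaxin and adenosine receptors and endothelin signalling completed the peptide list, in which 7 of 26 measured genes were higher and 7 lower. RXFP1, a receptor for relaxin, and ADORA1, an adenosine receptor, were lower in theca (-1.95 ± 0.34 and -1.97 ± 0.20). RXFP2, the receptor for INSL3, was higher (1.27 ± 0.17, adjusted p = 2.5e-05), and so was EDNRA, an endothelin receptor (1.65 ± 0.31).

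Of 32 measured transcription factors of the gonad 14 were lower in theca, 1 was higher (NR5A1) and 17 were not called, with a median difference of -0.34. SOX4 lay at 4.6, 5.25 and 6.1 in theca and at 8.1, 8.4, 7.8 and 7.9 in near stroma (-2.77 ± 0.21, adjusted p = 4e-08). TCF21, a factor of mesenchymal cells, lay at 5.7, 7.05 and 7.3 against 8.4, 8.6, 8.9 and 8.5 (-1.78 ± 0.24, adjusted p = 1.7e-05), and WT1, needed for the early gonad, at 4.2, 4.45 and 4.7 against 6.4, 6.6, 6.4 and 6.2 (-1.93 ± 0.12, adjusted p = 2.9e-09). EMX2, LHX9 and MEIS2 were lower too (-1.53 ± 0.38, -1.44 ± 0.31 and -1.87 ± 0.28). GATA4 and NR2F2, both factors of steroid-producing and stromal cells, were not called, and their 95% intervals ran from -0.26 to 0.33 and from -0.50 to 0.10.

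Of 32 measured nuclear hormone receptors 14 were lower in theca, 5 higher and the median was -0.33. ESR1, the oestrogen receptor alpha, lay at 4.0, 4.2 and 5.3 in theca and at 5.6, 6.2, 6.5 and 6.4 in near stroma (-1.76 ± 0.27, adjusted p = 7.2e-05). THRB, a thyroid hormone receptor, lay at 3.6, 3.85 and 4.3 against 7.0, 7.1, 7.0 and 7.2 (-3.18 ± 0.13, adjusted p = 1.1e-11), and NR3C2, the mineralocorticoid receptor, was lower (-2.62 ± 0.22). PGR, the progesterone receptor, was slightly higher with overlapping arrays (0.53 ± 0.19, adjusted p = 0.037). Retinoid synthesis favoured theca. ALDH1A1, which makes retinoic acid, lay at 8.3, 9.2 and 9.4 in theca and at 4.8, 4.3, 4.9 and 4.5 in near stroma (4.46 ± 0.29, adjusted p = 5.3e-09). ALDH1A2, with the same function, lay at 5.5, 5.8 and 6.9 against 3.2, 4.0, 3.9 and 3.1 (2.40 ± 0.24, adjusted p = 9e-07), and RDH11, which acts in the step before, was higher by 1.72 ± 0.30. RBP4, the carrier of retinol, was lower (-2.29 ± 0.20, adjusted p = 1.7e-07), and STRA6, the receptor for that carrier, was not called (-0.78 ± 0.31, adjusted p = 0.068). Of 21 measured genes 7 were higher and 2 lower.

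**Figure D3:**
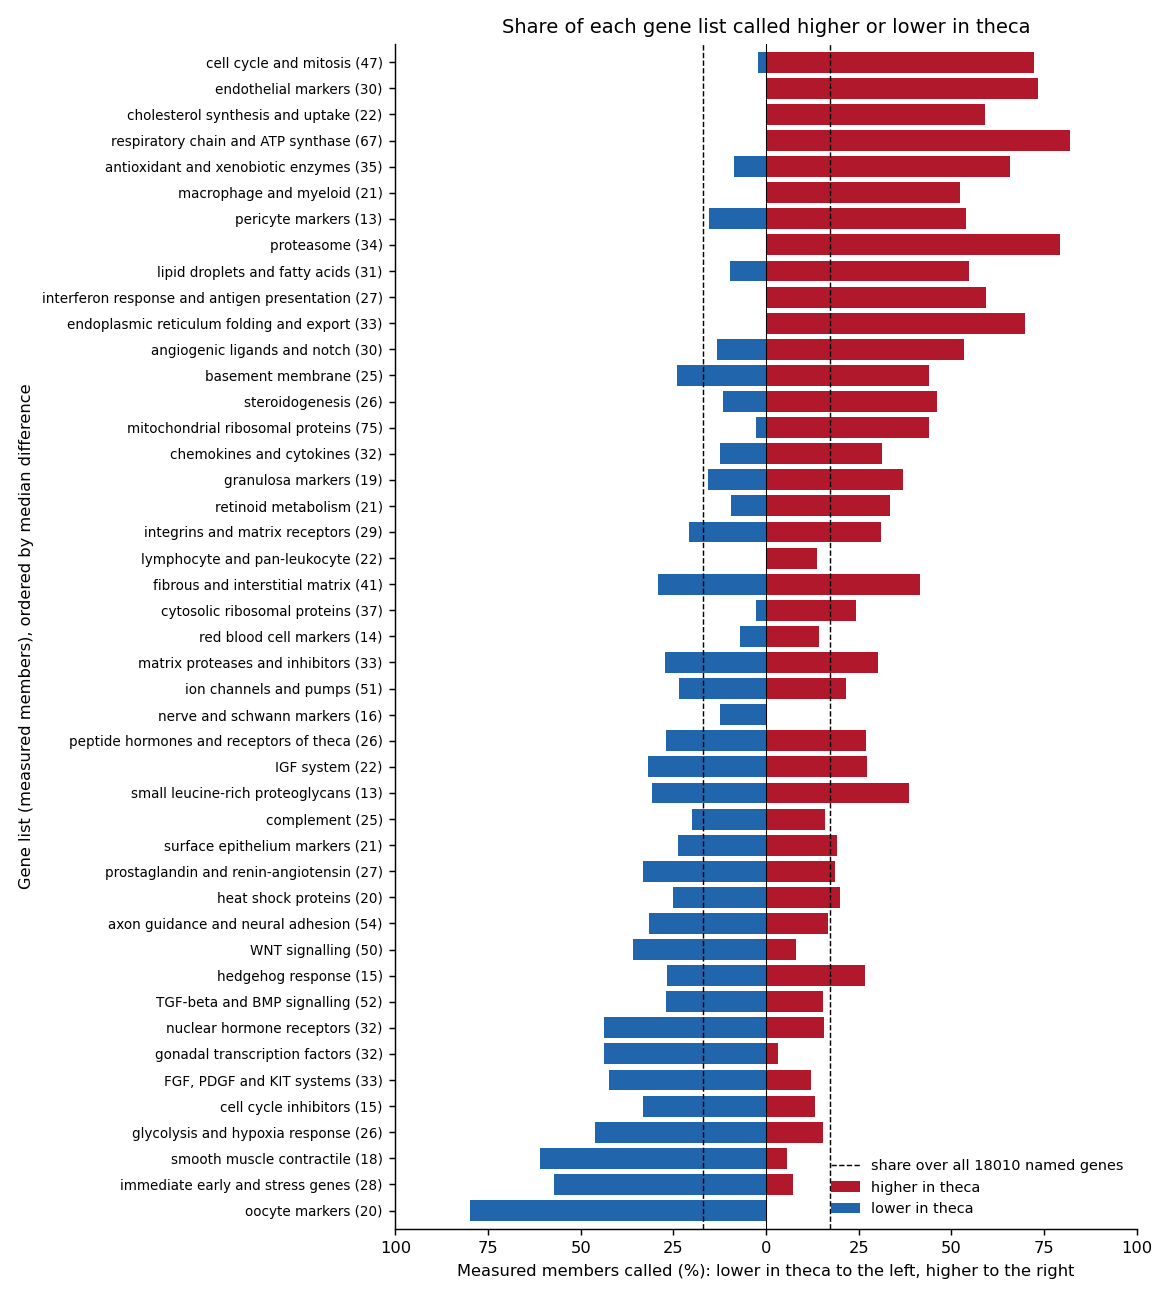
Share of the measured members of each of 45 gene lists called higher in theca (red, to the right) or lower (blue, to the left), ordered by the list's median difference, with the number of measured members in brackets. Dashed lines give the shares over all 18010 named genes, 17.1% higher and 17% lower; respiratory chain genes reach 82.1% higher and oocyte markers 80% lower.

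Cell division genes were higher in theca, and by amounts that varied between follicles. Of 47 measured cell cycle and mitosis genes 34 were higher, 1 lower and the median was 1.45. MKI67, a marker of dividing cells, lay at 6.5, 8.0, 7.7, 5.8, 8.1 and 6.0 on theca replicates 1 to 6 and at 3.0, 2.7, 2.8 and 2.9 on the near stroma arrays (4.17 ± 0.39, adjusted p = 3.6e-07). RRM2, which makes DNA building blocks, lay at 6.0, 8.3, 6.9, 5.5, 7.3 and 5.2 in the same order and at 3.3, 2.8, 3.1 and 2.6 in near stroma (3.58 ± 0.42, adjusted p = 4.5e-06). CENPA, a histone of the centromere, lay at 7.3, 8.4, 8.5, 6.3, 8.6 and 6.8 against 3.4, 4.2, 3.9 and 4.1 (3.75 ± 0.38, adjusted p = 9.2e-07). In all 3 genes theca replicates 2, 3 and 5 were the 3 highest arrays and every theca array was above every near stroma array. CCNB1, a cyclin on the same list, overlapped, at 6.0, 7.05 and 7.9 in theca and 5.6, 6.2, 5.5 and 5.0 in near stroma (1.41 ± 0.31, adjusted p = 0.0019). Arrays did not overlap for 23 of the 47 genes, against 18.7% of all clusters. KIF11, CENPE and ASPM, motor and spindle proteins, were higher by 3.92 ± 0.37, 3.35 ± 0.38 and 3.19 ± 0.31. The list mean on theca replicates 1 to 6 was 5.86, 6.97, 6.71, 5.33, 6.94 and 5.49, and on near stroma arrays 4.81, 4.91, 4.32 and 4.61. The 1 lower member was AURKA, a mitotic kinase, with group means of 6.47 and 8.62 (-2.16 ± 0.36, adjusted p = 0.0002). Of 15 measured inhibitors of the cycle 5 were lower, among them CDKN1A (-1.62 ± 0.23) and GADD45A (-1.58 ± 0.28), and 2 were higher, CDKN2C (2.28 ± 0.22) and GADD45B. GADD45B had a difference of 0.92 ± 0.35 and an adjusted p of 0.05 after rounding.

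Genes of energy supply and protein turnover were higher in theca as groups. The 67 measured respiratory chain and ATP synthase genes held 55 that were higher (82.1%) and 0 lower, with a median of 0.84, against 34.4% higher among clusters with a mean of at least 6. ATP5ME, an ATP synthase subunit, lay at 9.8, 10.0 and 10.3 in theca and at 8.3, 8.2, 8.6 and 8.3 in near stroma (1.68 ± 0.12, adjusted p = 1.2e-08), and ATP5MC1 and NDUFA11 were higher by 2.09 ± 0.42 and 1.68 ± 0.20. The list mean was 8.12 to 8.48 on theca arrays and 7.36 to 7.63 on near stroma arrays. Proteasome genes gave 27 of 34 higher (79.4%), 0 lower and a median of 0.72, with PSMA5 and PSMD14 higher by 1.42 ± 0.22 and 1.18 ± 0.23. Genes of folding and export in the endoplasmic reticulum gave 23 of 33 higher, 0 lower and a median of 0.67. MANF, a protein released under folding load, lay at 7.9, 8.65 and 9.3 against 6.1, 6.9, 6.8 and 6.2 (2.12 ± 0.27, adjusted p = 1.2e-05), and P4HB, which forms disulphide bonds and helps to hydroxylate collagen, at 8.7, 9.0 and 9.3 against 7.4, 7.6, 7.4 and 7.1 (1.64 ± 0.14, adjusted p = 1.1e-07).

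Ribosomal proteins moved less. Mitochondrial ribosomal proteins gave 33 of 75 higher (44%), 2 lower and a median of 0.41, and fewer were higher (22) when the arrays were centred on the cytosolic ribosomal genes. Cytosolic ribosomal proteins gave 9 of 37 higher, 1 lower and a median of 0.14, less than the shift between scalings, so that no direction is given for them. Glycolysis and hypoxia response genes gave 12 of 26 lower, 4 higher and a median of -0.45. SLC2A3, a glucose carrier, lay at 3.4, 4.1 and 4.2 in theca and at 7.0, 7.1, 6.8 and 7.1 in near stroma (-3.03 ± 0.41, adjusted p = 2e-05). BNIP3 and ANKRD37, targets of the hypoxia response, were lower (-1.55 ± 0.23 and -1.66 ± 0.17), while PGK1, of glycolysis, and EPAS1, a hypoxia factor that is high in endothelium, were higher (1.21 ± 0.24 and 1.37 ± 0.35), and LDHA was not called (0.26 ± 0.24).

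Immediate early genes, which are switched on within minutes by stimuli and by handling of tissue, were lower in theca. Of 28 measured members 16 were lower, 2 higher and the median was -0.92. NR4A1 lay at 4.1, 4.15 and 4.9 in theca and at 8.9, 7.8, 8.5 and 8.6 in near stroma (-4.17 ± 0.31, adjusted p = 2.5e-08). EGR1 lay at 6.1, 6.8 and 7.3 against 9.7, 8.8, 9.7 and 10.0 (-2.73 ± 0.43, adjusted p = 9.7e-05), and FOS at 4.4, 5.0 and 6.0 against 7.3, 5.3, 6.9 and 7.0, with overlapping arrays (-1.46 ± 0.48, adjusted p = 0.028). JUN, FOSL2, NR4A2 and NR4A3 were lower by differences of -1.58 ± 0.23, -1.88 ± 0.18, -2.62 ± 0.28 and -2.66 ± 0.21. NR4A1 was also high in interstitial stroma at 8.30 ± 0.59 and in tunica albuginea at 8.35 ± 0.75 (SD, n = 4 each), the other tissues taken by laser. What part collection had in these values was not tested and cannot be told apart from compartment. Heat shock genes gave 4 of 20 higher and 5 lower, with HSPA8, HSPE1 and HSPA4 higher (0.88 ± 0.11, 0.81 ± 0.11 and 0.99 ± 0.14) and CRYAB lower (-2.04 ± 0.45, adjusted p = 0.0019).

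**Figure D4:**
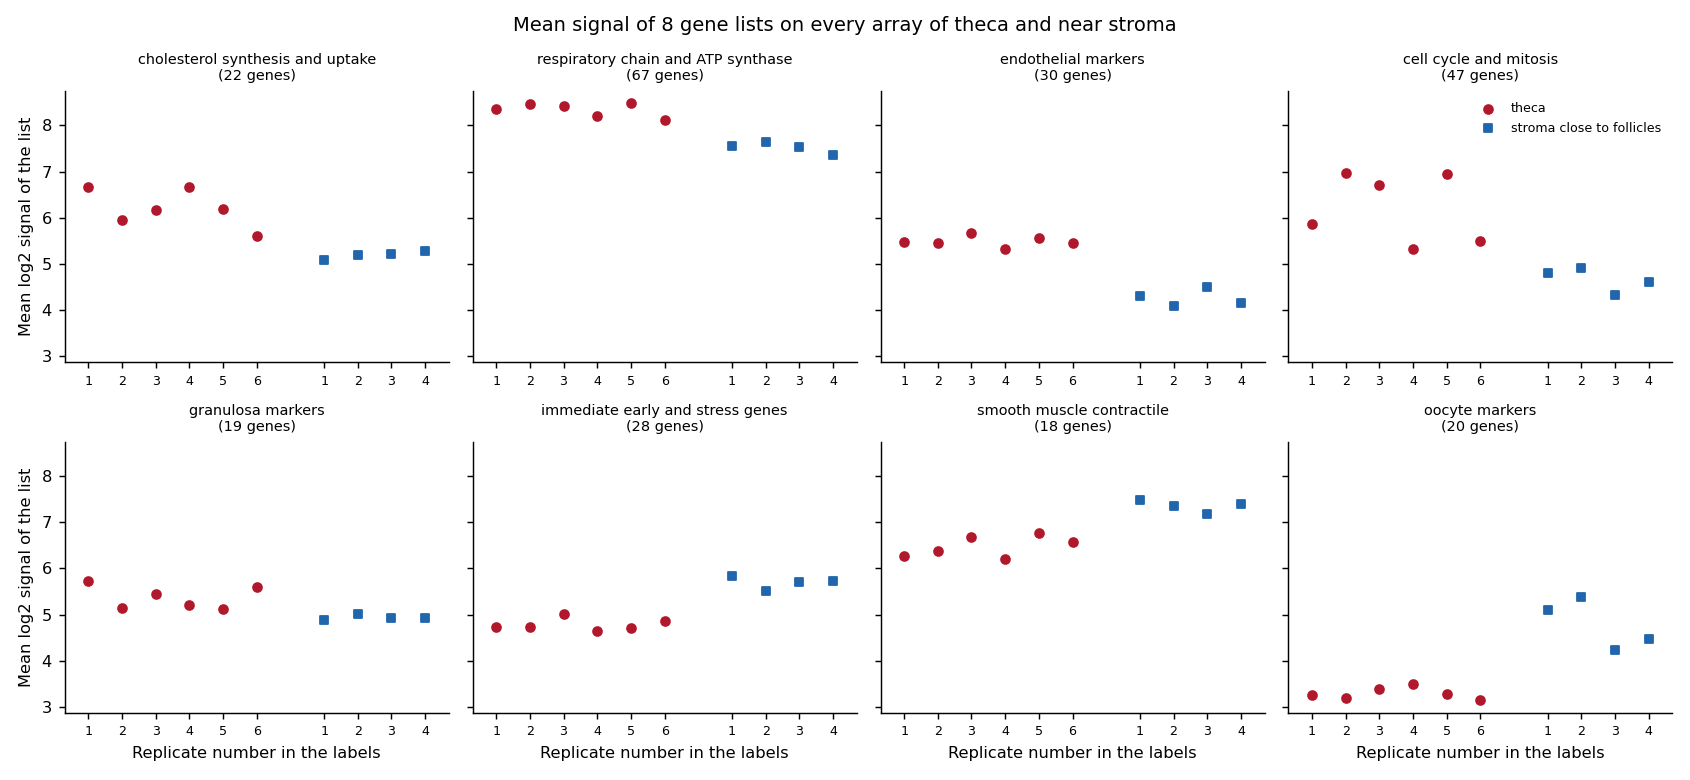
Mean log2 signal of 8 gene lists on each theca array (red circles, replicates 1 to 6) and each near stroma array (blue squares, replicates 1 to 4). Cell cycle means of theca replicates 2, 3 and 5 lie at 6.97, 6.71 and 6.94 above those of the other 3 follicles, and oocyte means of near stroma replicates 1 and 2 lie at 5.10 and 5.39 above the other 2 pools.

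Markers of cells that a dissected theca could carry along were read on every array. Of 19 measured granulosa markers 7 were higher in theca, 3 lower and the median was 0.22, and the list mean on theca replicates 1 to 6 was 5.72, 5.14, 5.45, 5.21, 5.11 and 5.60 against 4.88 to 5.02 in near stroma. FSHR, the receptor of follicle-stimulating hormone on granulosa cells, lay at 5.2, 3.4, 4.7, 4.1, 3.5 and 5.4 on theca replicates 1 to 6 and at 2.9, 4.3, 3.1 and 3.4 in near stroma (0.96 ± 0.35, adjusted p = 0.048). AMH, a hormone of granulosa cells in small follicles, was not called, at 4.1, 4.4 and 4.6 and 3.6, 4.0, 4.0 and 4.2. FOXL2, a granulosa transcription factor, was below 3 on every theca array. It was dim in near stroma too, at 4.0, 3.4, 3.5 and 3.4 (-0.72 ± 0.18, adjusted p = 0.0047). HSD17B1, a further member of the list, lay at 4.0, 4.45 and 4.7 in theca and at 3.4, 3.2, 3.3 and 3.4 in near stroma (1.08 ± 0.12, adjusted p = 1.6e-06). The brighter members INHBA, FST and INHA, described above, make up the largest differences of this list as well as of the activin group, and the part of granulosa cells in them was not tested.

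Surface epithelium markers gave 4 of 21 higher and 5 lower. CLDN1, a tight junction protein, lay at 6.0, 6.95 and 7.2 in theca and at 4.4, 3.6, 4.6 and 3.5 in near stroma (2.71 ± 0.32, adjusted p = 4e-06), while CDH3 and EPCAM, adhesion proteins of epithelium, were lower (-2.79 ± 0.43 and -2.99 ± 0.20), and the mesothelial keratin KRT19 and uroplakin UPK3B were near background in both. The keratins KRT8 and KRT18 and uroplakin UPK1B were higher in theca with overlapping arrays (1.04 ± 0.25, 1.12 ± 0.37 and 1.32 ± 0.39). Nerve and Schwann cell markers gave 0 of 16 higher and 2 lower. Red blood cell markers gave 2 of 14 higher and 1 lower, and the haemoglobin genes HBB and HBA were below 4.4 on all 10 arrays.

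Neural adhesion and guidance genes, which also act in other tissues, leaned to near stroma, with 17 of 54 measured members lower in theca, 9 higher and a median of -0.15. OPCML and MDGA2, adhesion proteins anchored in the outer membrane, lay at 6.0, 7.2, 7.3 and 7.1 and at 6.4, 7.0, 5.7 and 6.8 in near stroma and at 2.6, 2.85 and 3.0 and 2.1, 2.2 and 2.4 in theca, with differences of -4.07 ± 0.31 and -4.24 ± 0.34. The guidance ligand SEMA3D was lower (-3.27 ± 0.25), and NCAM1, an adhesion protein, was higher (2.52 ± 0.28, adjusted p = 2e-06). Ion channels and pumps gave 11 of 51 higher and 12 lower. KCNE4, a channel subunit, lay at 4.7, 6.1 and 6.7 in theca and at 3.3, 2.7, 3.1 and 2.5 in near stroma (3.10 ± 0.32, adjusted p = 1e-06), and ATP1B2, a sodium pump subunit, was lower (-2.62 ± 0.34, adjusted p = 1.4e-05).

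The array also holds clusters at microRNA genes, which report precursor or host transcripts and not the mature microRNAs. Of 528 named, 34 were higher in theca (6.44%) and 113 lower (21.4%), with a median of -0.18. Only 29 had a mean of at least 6 in 1 of the 2 groups, and of these 8 were higher and 7 lower. MIR99A and MIRLET7C, which lie together in a host transcript in human, had differences of -3.67 ± 0.29 and -3.50 ± 0.22. MIR143 and MIR145, another pair made from a shared precursor and known from smooth muscle, had differences of -2.39 ± 0.45 and -2.40 ± 0.50. MIR21 and MIR29C were lower as well (-2.57 ± 0.49 and -2.55 ± 0.39). In theca, means of these 6 ranged from 2.10 to 3.98, below the array median.

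Some genes separated the follicles from each other. The median SD over clusters was 0.232 in theca and 0.25 in near stroma, and the SD was larger in theca at 47% of clusters. Over the 6679 clusters with a mean of at least 6 in either group, the median SD was 0.248 in theca and 0.245 in near stroma, and it was larger in theca at 51.7%. CARTPT, a peptide of granulosa cells of bovine follicles, had the largest SD in theca but for 1 other named gene, at 7.7, 3.0, 5.8, 3.8, 2.7 and 7.8 on replicates 1 to 6, and lay at 2.6, 2.6, 2.7 and 2.8 in near stroma (2.46 ± 0.80, adjusted p = 0.027). The cadherin CDH2, a granulosa marker, lay at 5.8, 3.3, 5.0, 3.2, 3.1 and 6.3 on the same arrays and at 5.7, 6.5, 6.1 and 6.3 in near stroma (-1.70 ± 0.56, adjusted p = 0.029). Replicates 1, 3 and 6 were the 3 highest theca arrays for CARTPT, CDH2, FSHR and the granulosa list mean. FSHR and CDH2 are themselves members of that list, and other members had another order. INHBA lay at 8.0, 7.9, 7.5, 7.5, 7.8 and 6.9 on theca replicates 1 to 6. AMH lay at 4.4, 4.6, 4.6, 4.2, 4.4 and 4.1, and CYP19A1 at 3.8, 2.8, 2.7, 3.2, 2.8 and 2.6. INHBA, AMH and CYP19A1 were thus lowest on replicate 6.

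Theca replicates 2 and 6 were the lowest for another group of genes. LOC767968, listed in RefSeq with the synonyms BEX1 and BEX2, lay at 8.9, 4.5, 9.0, 8.5, 8.5 and 5.0 on theca replicates 1 to 6 and at 5.2, 2.9, 4.5 and 4.7 in near stroma (3.08 ± 0.76, adjusted p = 0.0049). RGN, regucalcin, a calcium-binding protein, lay at 8.0, 3.6, 7.1, 8.0, 6.8 and 4.0 against 4.2, 4.2, 5.1 and 4.6 (1.72 ± 0.69, adjusted p = 0.066). CYP17A1 lay at 10.3, 7.2, 9.7, 10.0, 9.6 and 7.8. Replicates 2 and 6 were the 2 lowest theca arrays for all 3 genes, whereas CYP11A1 lay at 10.2, 10.2, 10.1, 10.2, 10.2 and 9.2 and was low on replicate 6 only. The other genes with a large SD in theca were either high or low on an array. LOC506989 was at 2.1, 7.0, 6.5, 2.4, 6.8 and 7.8 in theca and at 7.2, 7.1, 2.3 and 7.3 in near stroma, and the olfactory receptor gene OR2J3D at 1.4, 1.5, 4.6, 1.9, 4.7 and 4.8 and 1.6, 5.5, 4.0 and 1.9. BOLA-DQB1, a class II antigen-presenting chain, lay at 8.8, 8.6, 5.6, 8.4, 5.7 and 9.5 and 7.5, 7.6, 7.4 and 7.0. None of these 3 was called between the tissues.

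Many genes differed little between the follicle wall and its surroundings. The 95% interval of the difference lay within 0.5 log2 units of 0 for 8409 of 26773 clusters (31.4%), and for 1303 of the 6679 clusters with a mean of at least 6 in 1 of the 2 groups (19.5%). The 8 brightest named genes of this kind were the ribosomal protein genes RPS28, RPS25, RPS12, RPL32, RPS29, RPL37A, RPL18 and RPL23, with differences from -0.14 to 0.19. Decorin and TIMP1 above, and GATA4, are among the tissue genes with intervals of that width.

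Near stroma was also set against interstitial stroma, to ask whether the tissue beside follicles is separable from stroma further away. Only 9 of 26773 clusters were called (0.0336%) by limma, all higher in near stroma and 0 lower. At an unadjusted limma p below 0.05, which chance alone passes in about 1 of 20 clusters, there were 1149 clusters higher and 1026 lower. The 9 called clusters were SAXO1, MAEL, EPCAM, LOC505033 (listed in RefSeq with the synonym CST9), CDH7, SOHLH2, TNNI3, ALOX15B and RBM46. MAEL, SOHLH2 and RBM46 are genes of germ cells. EPCAM, the epithelial adhesion protein, lay at 6.2, 6.3, 5.4 and 5.6 in near stroma and at 4.9, 4.6, 4.1 and 4.0 in interstitial stroma (1.48 ± 0.22, adjusted p = 0.035). MAEL, of the small RNA pathway of germ cells, lay at 5.8, 6.4, 4.8 and 5.4 against 4.2, 4.2, 3.7 and 3.6 (1.68 ± 0.28, adjusted p = 0.04), and SAXO1, a microtubule protein of cilia and sperm, at 7.0, 6.8, 5.4 and 5.9 against 4.4, 4.5, 4.4 and 3.4 (2.10 ± 0.33, adjusted p = 0.035). Near stroma was higher on each of its 4 arrays in these genes, and all 3 were below 3.3 on every theca array.

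TNNI3, the cardiac form of troponin I, was the exception to that order. It lay at 7.7, 8.1 and 8.6 in theca, at 5.1, 5.2, 4.9 and 4.7 in near stroma, at 4.0, 3.4, 3.8 and 3.5 in interstitial stroma and at 3.5, 2.7, 2.9 and 3.0 in tunica albuginea, with no overlap between theca and near stroma (3.19 ± 0.19, adjusted p = 1.4e-09) or between near and interstitial stroma (1.30 ± 0.21, adjusted p = 0.035). The other 8 genes were lower in theca than in near stroma. Near minus interstitial stroma was not called for these steroid genes: it was 0.68 ± 0.30, adjusted p = 0.58 for CYP11A1, 0.15 ± 0.21, adjusted p = 0.92 for INSL3, 0.02 ± 0.49, adjusted p = 1.0 for CYP17A1 and -0.18 ± 0.19, adjusted p = 0.89 for LHCGR. The count of 9 rested on the arrays used. Without near stroma replicate 3 it was 122 higher and 30 lower. Without near stroma replicate 2, or interstitial stroma replicate 2 or 4, no cluster was higher, and none was called when the 8 arrays were fitted alone. Near stroma replicate 3 had the lowest oocyte list mean of its group, at 4.24, and the part of oocyte content in this comparison was not tested.

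**Figure D5:**
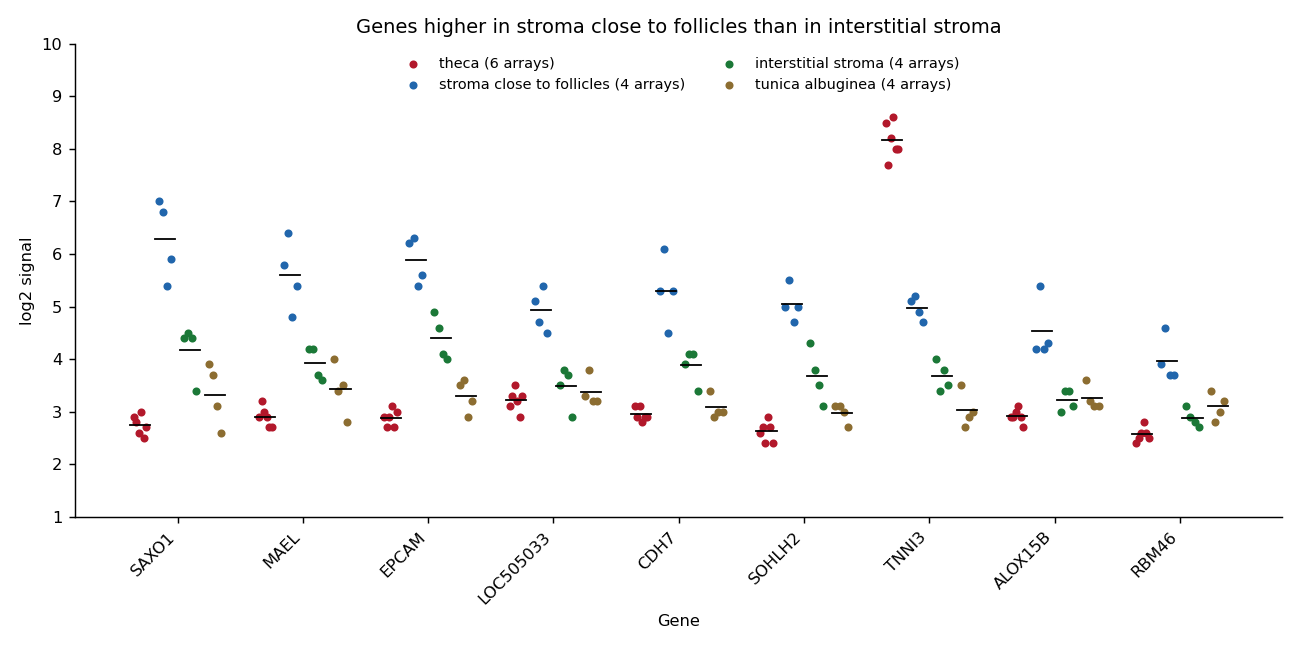
Log2 signal on every array of theca (6), near stroma (4), interstitial stroma (4) and tunica albuginea (4) for the 9 genes called higher in near than in interstitial stroma, with group means as black lines. Of these genes TNNI3 is highest in theca, with all 6 arrays between 7.7 and 8.6, and the other 8 are lower in theca than in near stroma. For some of the 8, such as CDH7 and LOC505033, theca and tunica albuginea arrays overlap near background.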

How the data were processed

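The deposited values are log2 signals of a cattle expression array, made with RMA and Partek 6.5 per the submitters' processing notes. RMA corrects background, quantile normalises the arrays and summarises the probes of a transcript cluster and so hides any shift shared by most genes. Values are rounded to 1 decimal, and the number of arrays limits the precision. The genome build of the array is not given in the sources used here.

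Groups came from sample titles. A further label calls all samples thecal tissue and was not used. Replicates held identical values at 9.12% to 14% of clusters, so none was treated as a repeat. Whether near stroma pools shared animals is not given; if they did, their p-values are too small. Replicate numbers were not taken as pairs, because deviations of same-numbered theca and near stroma arrays correlated at -0.023, 0.076, -0.001 and 0.036.

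Genes were named through the platform annotation, in which 18457 of 26773 clusters carried 1 symbol and 688 several. Clusters with several symbols or none were tested but not named, which leaves STAR and ACTA2, among others, not analysed here. For 401 of 18010 genes with more than 1 cluster, the brightest stood for the gene. The fit used limma 3.58.1 (R 4.3.3), with 1 mean for each of the 4 compartments over 18 arrays, empirical Bayes moderation, two-sided p-values and Benjamini-Hochberg adjustment over all clusters. The code was tested on simulated data.

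The 45 gene lists (1453 genes, 1318 measured), tests and alternatives were chosen with earlier results of these data known. Named genes were, by rule, the 15 highest and 15 lowest without overlap between groups, the anchors and up to 6 largest called members of each list, up to 8 per direction between near and interstitial stroma, the 6 with the largest SD in theca, 6 microRNA genes and the 8 brightest with an interval within 0.5 of 0. The rule also took a list of markers for each cell type, among them TEK, CSPG4, ZP2, UPK3B and CD2. AURKA and RXFP2 fall outside the rule and were chosen after their values were seen. Alternatives covered other array sets, scalings, filters, weights and priors, the replicate block, and leaving out each array.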

Additional observations from a re-analysis of the deposited data

Results flagged for a closer look

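Among 347 named genes, each of the 2 groups of arrays was searched for 1 array standing far from the rest by Dixon's gap test at its 95% critical value, which chance alone passes in about 1 of 20 groups. Of 694 groups, 50 passed. The gap was at most 0.2 log2 units for 17 of them, close to the rounding step of 0.1, and at least 0.8 for 16.

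On theca replicate 2, this held for PDGFRA (7.4 against 8.4 to 8.5), DAG1 (9.8 against 9.0 to 9.2), HBB (4.3 against 3.5 to 3.7) and ALDH1A1 (8.3 against 9.1 to 9.4), each against the other theca arrays. The same array stood apart for PLN (5.9 against 6.9 to 7.3), BOC (3.7 against 3.9 to 4.0), MMP2 (8.2 against 8.6 to 8.8) and NRP1 (8.4 against 8.6 to 8.7). It did so too for SOD2 (7.6 against 7.8 to 7.9) and JAG1 (5.7 against 6.4 to 6.8). On theca replicate 3, this held for CD2 (4.0 against 3.1 to 3.2), NR4A1 (4.9 against 4.1 to 4.3) and KRT19 (4.4 against 3.1 to 3.5), each against the other theca arrays. On theca replicate 4, it held for UCHL1 (4.7 against 5.7 to 5.9). On theca replicate 5, it held for GATA4 (5.7 against 5.9 to 6.0). On theca replicate 6, this held for CYP11A1 (9.2 against 10.1 to 10.2), CXCL14 (8.1 against 9.2 to 9.6), ANGPT2 (7.2 against 5.8 to 6.2) and EDNRA (7.9 against 6.3 to 6.8), each against the other theca arrays. The same array stood apart for GLI1 (6.1 against 5.2 to 5.5), EBP (5.7 against 6.9 to 7.5), COL3A1 (9.7 against 8.8 to 9.1) and C3 (2.7 against 3.1 to 3.3). It did so too for NR4A2 (3.9 against 4.1 to 4.2) and MRPS25 (4.9 against 5.8 to 6.3).

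On near stroma replicate 1, this held for FBLN1 (9.4 against 9.5), CLU (10.6 against 10.5), RPS12 (12 against 11.9) and S100B (5.1 against 4.2 to 4.3), each against the other near stroma arrays. The same array stood apart for OPCML (6.0 against 7.1 to 7.3) and FOXL2 (4.0 against 3.4 to 3.5). On near stroma replicate 2, this held for OTOS (2.4 against 2.6), LAMB1 (7.9 against 8.0), MMP2 (9.3 against 8.9) and MYH11 (9.6 against 9.7), each against the other near stroma arrays. The same array stood apart for NOTCH3 (3.8 against 4.2), PMP22 (8.8 against 9.0), ALOX15B (5.4 against 4.2 to 4.3) and PSMD14 (7.1 against 6.4 to 6.5). It did so too for NR4A2 (6.3 against 6.8 to 6.9). On near stroma replicate 3, this held for ITGBL1 (3.0 against 3.2), DCN (11.1 against 11.3), NKD1 (5.5 against 5.6) and RPS25 (12.2 against 12.1), each against the other near stroma arrays. The same array stood apart for LOC506989 (2.3 against 7.1 to 7.3), ID2 (8.1 against 8.8 to 8.9) and SDC4 (6.2 against 6.7 to 6.8). On near stroma replicate 4, this held for ITGB8 (5.8 against 5.6), KRT18 (4.2 against 3.4 to 3.5) and PGK1 (6.8 against 6.2 to 6.3), each against the other near stroma arrays.

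Theca replicates 2 and 6 held 10 of these values each, and near stroma replicate 2 held 9. The largest single departure was LOC506989 on near stroma replicate 3, at 2.3 against 7.1 to 7.3.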

How the results depend on the processing

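Direction held for every named gene that was called, under all alternatives run. Leaving out 1 of the 10 arrays gave 3564 to 4069 clusters higher in theca and 3496 to 4067 lower, and no single array decided either count. Centring on ribosomal protein genes raised the lower count from 4183 to 8117, which follows from its shift of -0.189. Leaving out the 40% dimmest clusters gave 3723 higher and 2929 lower. With the replicate block 3583 were higher and 3429 lower, and the 10 arrays alone gave 3837 each.

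Between near and interstitial stroma the 9 higher clusters were unstable. They became 0 with the 8 arrays alone, 3 without the dimmest clusters and 5 with the replicate block, and 0 to 122 when 1 array was left out. The 0 lower clusters became 1 under array weights, 1 under the intensity trend, 1 under 75th percentile centring, and 0 to 30 when 1 array was left out, with 30 without near stroma replicate 3 and 17 without interstitial stroma replicate 3. The cause was not tested.

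Leaving out 1 array lost at most 24 calls of named genes (without near stroma replicate 2). Single calls near the threshold were lost or gained under several alternatives for GADD45B, FSHR, CYP19A1, CD3E, PDGFRB, CD5, CARTPT, CDH2, LUM, PGR, FOS, CD68, ANPEP and KRT18. Among lists, macrophage genes higher went from 11 to 7 and oocyte genes lower from 16 to 9 without the dimmest clusters, since fewer genes were tested, and TGF-beta and BMP genes lower went from 14 to 25 under ribosomal centring. Signal near background limits what can be said of genes below 4.1 in both tissues.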

Other observations

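The genes given here are members of lists counted above, so their calls are already part of those counts. The pericyte list contains a trio of mitochondrial genes known to be high in pericytes, NDUFA4L2, HIGD1B and COX4I2, and they were higher in theca by 1.33 ± 0.22, 1.30 ± 0.27 and 0.82 ± 0.18. RARRES1 and RARRES2, genes named for their response to retinoids, were higher by 1.48 ± 0.42 and 1.94 ± 0.19. TFRC, the transferrin receptor that brings iron into cells, was higher (1.36 ± 0.27, adjusted p = 0.00084), while the haemoglobin genes were dim in both tissues.

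Carbonic anhydrases went both ways, with CA1 higher (1.0 ± 0.32, adjusted p = 0.022) and CA2 lower (-1.28 ± 0.30, adjusted p = 0.0031). The RNA-binding proteins IGF2BP2 and IGF2BP3 were lower in theca (-1.53 ± 0.21 and -2.45 ± 0.27). IGF2BP3 lay at 5.8, 5.7, 4.2 and 4.7 on near stroma replicates 1 to 4. Its mean was 3.90 ± 0.42 in interstitial stroma and 3.45 ± 0.41 in tunica albuginea (SD, n = 4 each). CLU, clusterin, a bright gene of both tissues, lay at 8.6, 8.8 and 9.5 in theca and at 10.6, 10.5, 10.5 and 10.5 in near stroma (-1.64 ± 0.16, adjusted p = 5.6e-07). UCHL1, a ubiquitin hydrolase of neurons and germ cells, lay at 4.7, 5.75 and 5.9 against 7.4, 7.5, 7.7 and 6.6 (-1.68 ± 0.25, adjusted p = 4.6e-05), with no overlap of arrays.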
